A study of Mus musculus with 40 samples.

Results

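The genes described here across fat and liver mark the cells that line blood vessels: Pecam1, Cdh5, Kdr, Tek, Flt1, Eng, Emcn, Esam, Egfl7 and Ccm2l. They were taken by gene symbol from the deposited tables, from a list drawn up with earlier results of these data known, and are 10 of the 20078 genes those tables hold together. All 10 were present in each of the 4 tables. In gonadal white adipose tissue (gWAT), which lies around the gonads, all 10 passed a filter of a mean of 10 or more normalized counts in both sexes. That mean was taken over nicotine and control libraries together. In liver 8 passed in each sex, and Emcn and Ccm2l lay below the filter.

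RNA was sequenced as 3′ tags, which read each transcript near its polyadenylated end, from offspring of fathers exposed to nicotine and from offspring of control fathers, whose columns the headers call DMSO. All mice were C57BL/6J, a common inbred strain; their age, and the dose and length of the fathers' exposure, are not given in the labels. The nicotine groups were female gWAT, female liver, male gWAT and male liver with 5 libraries each, and the control groups were the same tissues with 5, 5, 4 and 5 libraries. The labels do not say whether the gWAT and liver samples came from the same animals, or how many fathers or litters the offspring had, so the p-values measure the spread between these samples.

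Endothelial cells form the inner wall of every vessel, and the capillaries of fat and the fenestrated sinusoids of liver are differing forms of the same lineage. Vascular endothelial growth factor (VEGF) drives their growth through the receptors encoded by Kdr and Flt1, angiopoietins steady the vessel through the receptor encoded by Tek, and homophilic adhesion proteins hold the cells together. Ccm2l encodes a relative of CCM2, a scaffold of the cerebral cavernous malformation complex that in mouse and zebrafish works with the membrane protein HEG1 to keep vessels intact.

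Depth ranged from 1543208 to 2239073 reads assigned to genes per library, so a gene with 10 normalized counts rests on about that many reads. The tissue labels fitted their defining markers: 6 adipocyte genes summed to between 15408 and 81043 normalized counts per gWAT library, and 6 hepatocyte genes to between 51617 and 88655 per liver library. Several libraries held transcripts of neighbouring tissues. Epididymis markers summed to 54524 in nicotine library 1 of male gWAT and to 66792 in control library 1, against 1538 to 6692 in the other nicotine libraries and 110.2 to 4135 in the other control libraries. Skeletal muscle markers summed to 19352 in control library 2 of female gWAT and to 5265 in nicotine library 4 of male liver, and pancreas markers to 7795 in nicotine library 2 of male liver. In bulk tissue, fewer cells of a type and less RNA per cell cannot be told apart.

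Levels in fat and liver are given as RPM, each library's reads scaled to 1 common total, as a description with no test, since each table was normalized on its own. Endothelial transcripts were more abundant in gWAT than in liver for most of the 10 genes. Among control libraries the summed level of the 10 was 905.4 ± 270.5 RPM in female gWAT and 403.2 ± 19.93 in female liver (SD, n = 5 each), a ratio of 2.25. In male controls it was 1079 ± 386 in gWAT (n = 4) and 368.3 ± 33.41 in liver (n = 5), a ratio of 2.93. Every gWAT library exceeded every liver library of the same sex and treatment in this sum.

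The size of the fat excess differed from gene to gene. Emcn, which encodes the capillary and venous sialomucin endomucin, had the largest ratio of gWAT over liver in controls, 6.94 in females and 8.63 in males. Its control liver libraries held only 4 to 9 reads in females and 1 to 9 in males. Flt1 followed in females with 4.46 and had 5.03 in males, and Esam, a tight-junction adhesion molecule, had 4.45 and 5.47. Cdh5, which encodes VE-cadherin of the adherens junction, had ratios of 3.38 and 4.26. Pecam1 (CD31) had 2.94 and 4.58, and Egfl7, a secreted matrix protein of vessels, had 3.23 and 4.04.

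The angiopoietin receptor gene Tek had ratios of 2.40 in females and 3.36 in males, and Ccm2l had 2.21 and 3.06. Control liver libraries held only 1 to 9 reads of Ccm2l in females and 3 to 13 in males. Kdr had 1.41 and 1.88, and its gWAT and liver control libraries overlapped in both sexes. Eng, which encodes the TGF-beta co-receptor endoglin, had 12.43 ± 3.615 RPM in female control gWAT and 14 ± 2.885 in female control liver, a ratio of 0.887, and 1.16 in male controls. The gWAT and liver control libraries of Eng, and those of Ccm2l, overlapped in both sexes, and those of Tek overlapped in males. Across the gWAT groups the lowest level of Eng was in nicotine females, with 6.31 ± 2.978 RPM (n = 5), where every library lay below every nicotine female liver library.

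**Figure D1:**
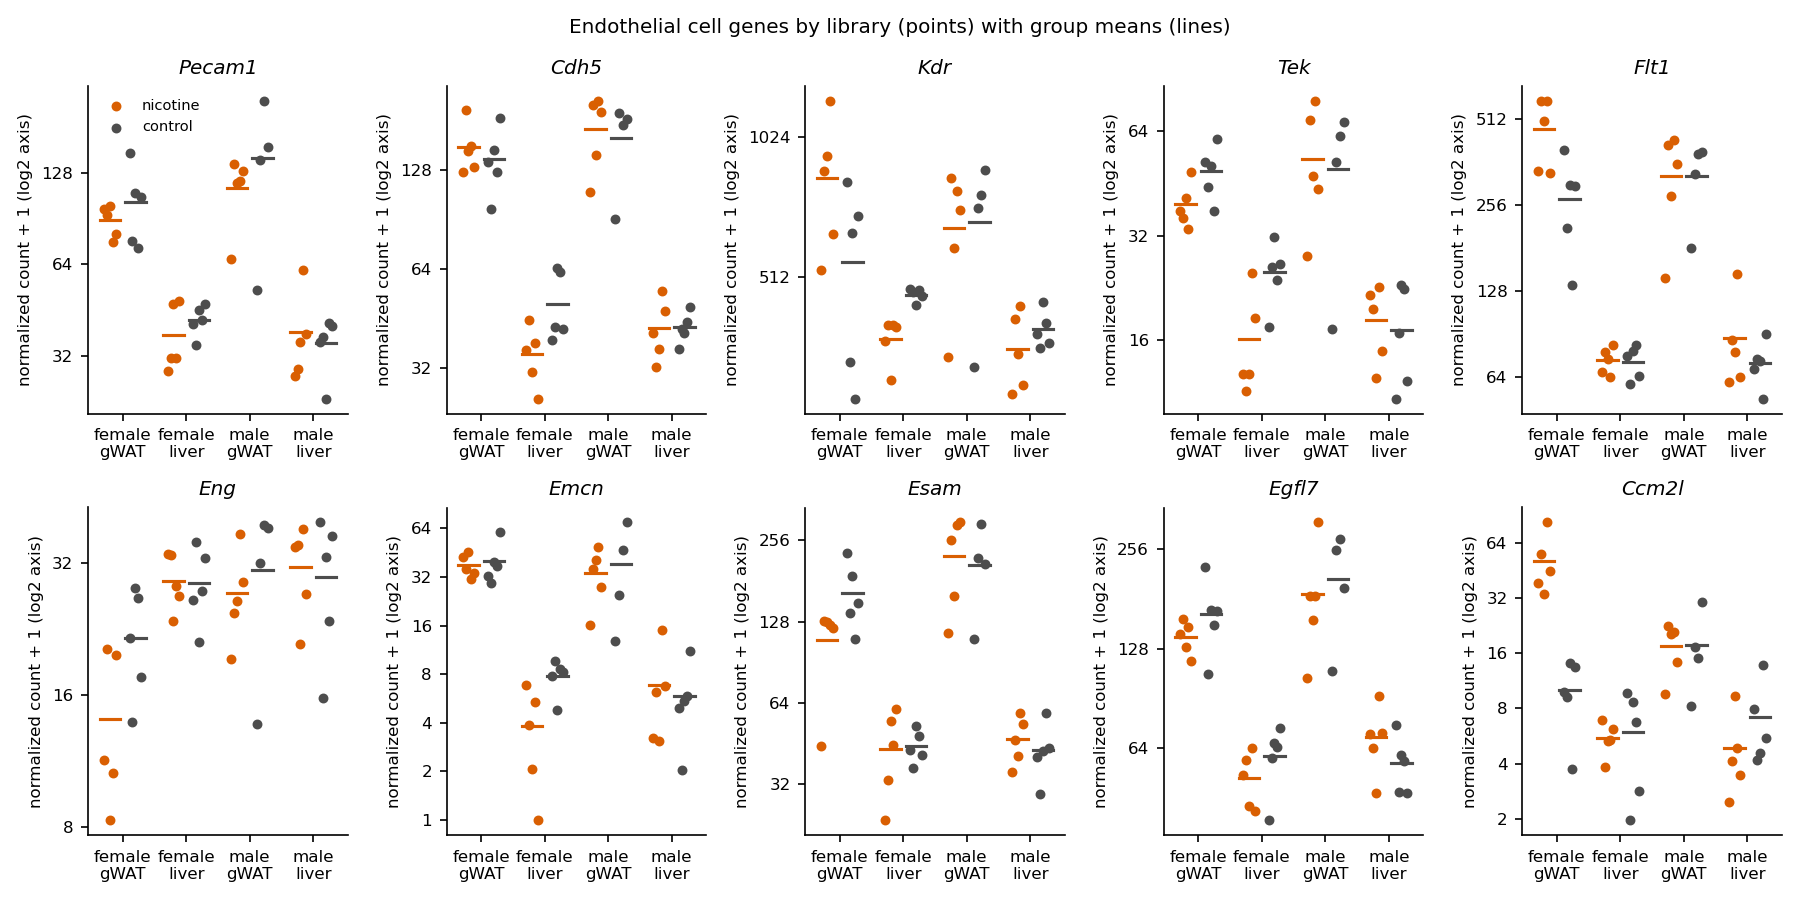
Each panel is 1 gene, with its normalized count plus 1 in every library on a log2 axis, nicotine (orange) left of control (dark grey) for female gWAT, female liver, male gWAT and male liver; lines are group means. Ccm2l in female gWAT is the panel position where the nicotine points (32.73 to 81.73) lie wholly above the control points (2.748 to 13.1), and Kdr in female liver the one where they lie wholly below.

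In female gWAT, 2 of the 10 genes rose with paternal nicotine and none fell (limma adjusted p below 0.05). Of all 10532 genes tested, 25.2% were called, and 12.4% of all 10532 were called higher. The share of the endothelial genes called is close to that background. edgeR called 1 of the 10 (Ccm2l) and 24.3% of all genes, and DESeq2 the same 2 genes and 28.3% of all. Their median log2 change was -0.10, against -0.03 over all genes tested.

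Ccm2l changed most. It had 37.83, 54.34, 32.73, 81.73 and 44.07 normalized counts in the nicotine libraries of female gWAT, against 8.821, 8.245, 13.1, 2.748 and 12.42 in the control libraries. The groups did not overlap, which held for 8.48% of all tested genes in the higher direction. The means were 50.14 ± 19.41 in nicotine and 9.067 ± 4.129 in control females (SD, n = 5 each), a ratio of 5.53 and a log2 change of 2.41 (SE 0.37, 95% interval 1.62 to 3.20, limma adjusted p = 0.000649). The authors' deposited table gives Ccm2l a log2 fold change of 2.20 in female gWAT with an adjusted p of 3.64e-08, where 18.9% of its genes lie below 0.05. Leaving out any 1 library kept the call, with changes between 2.08 and 2.56.

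Flt1 encodes VEGF receptor 1, which binds VEGF-A and VEGF-B and whose soluble form traps them. In female gWAT it had 334.8, 588.1, 501, 588.9 and 329.1 normalized counts in nicotine libraries, against 397.9, 211.6, 299.6, 133.7 and 296.5 in control libraries. The groups overlapped: nicotine libraries 2, 3 and 4 lay above every control, and nicotine libraries 1 and 5 below control library 1. Means were 468.4 ± 129.6 and 267.9 ± 99.86 (SD, n = 5 each), a log2 change of 0.85 (SE 0.27, 95% interval 0.26 to 1.43, limma adjusted p = 0.0354). The call was lost without control library 2, control library 4 or nicotine library 2, 3 or 4, each left out singly, with an adjusted p of up to 0.0901.

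Kdr encodes VEGF receptor 2, the main signalling receptor of VEGF-A. Its 5 nicotine libraries held 529.7, 863.4, 932.9, 1222 and 632.9 normalized counts in female gWAT, and its 5 control libraries 817.4, 335.3, 635.9, 280.3 and 690.7. Of the controls 3 lay within the nicotine range and 2 below it, and the log2 change of 0.66 (SE 0.30, limma adjusted p = 0.126) did not pass. Control libraries 2 and 4 were the lowest for both Kdr and Flt1. Control library 2 is the one that held skeletal muscle transcripts, and their part in these values was not tested.

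The other 7 genes of female gWAT did not pass. Eng and Esam had the lowest estimates: Eng averaged 13.06 ± 5.578 in nicotine and 20.54 ± 6.004 in control females (log2 change -0.66, adjusted p = 0.167), and Esam 108.4 ± 36.34 and 162.5 ± 47.09 (-0.63, adjusted p = 0.127). One nicotine library set much of the Esam mean, with 43.57 normalized counts against 120 to 128 in the other 4, and without that library its estimate was -0.33. Tek had a log2 change of -0.31, Egfl7 of -0.20, Pecam1 of -0.16, Emcn of -0.05 and Cdh5 of 0.13, with limma adjusted p between 0.251 and 0.900. The 95% interval of Cdh5 ran from -0.28 to 0.54 and that of Pecam1 from -0.59 to 0.28.

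**Figure D2:**
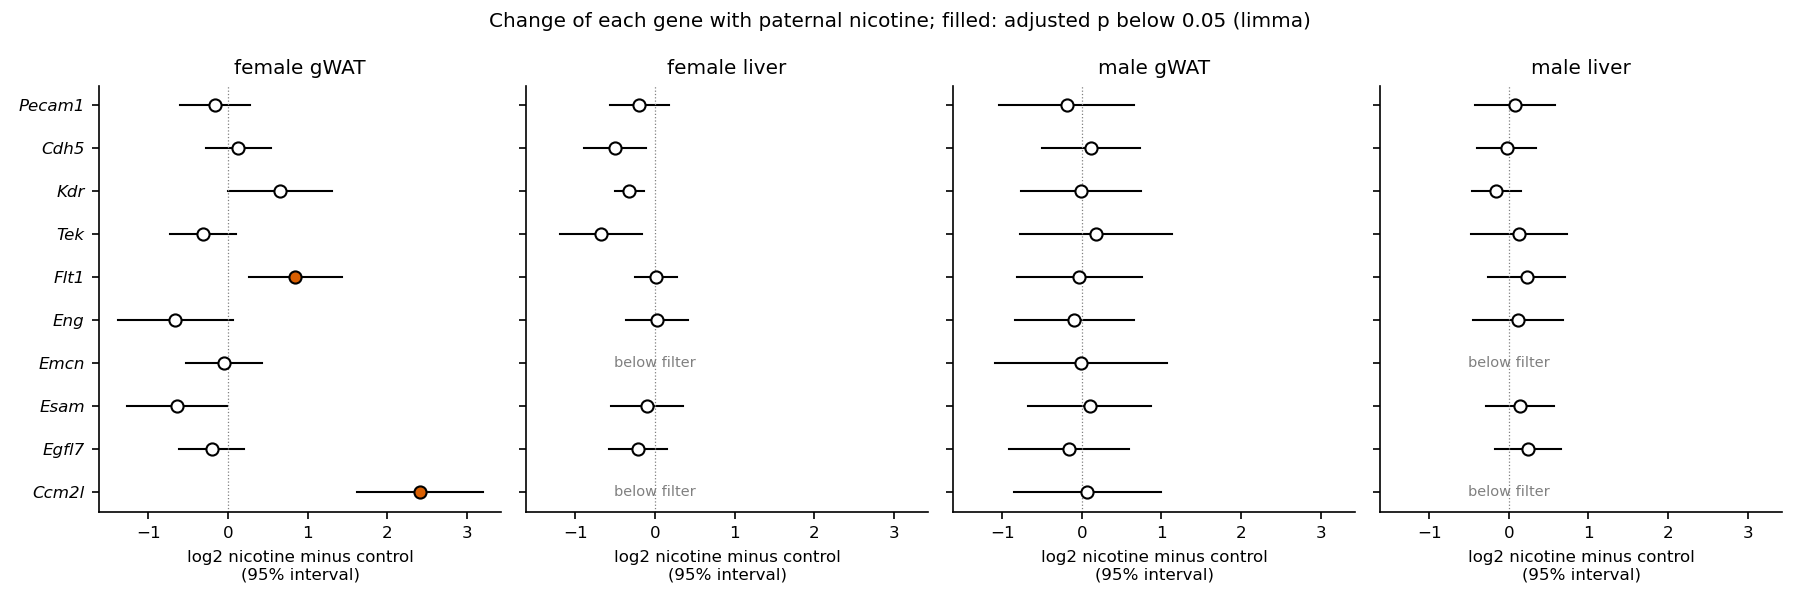
Log2 change (nicotine minus control) of each gene with its 95% interval in female gWAT, female liver, male gWAT and male liver; filled points passed an adjusted p of 0.05 (limma) and genes below the filter are named as such. The filled points are Ccm2l (2.41) and Flt1 (0.85) in female gWAT.

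The scale on which female gWAT was compared set several of these values. With reads scaled to equal library totals in place of the deposited size factors, the median log2 change of all genes moved by -0.33, to -0.36, and the calls over all genes split into 479 higher and 2644 lower, against 1303 and 1353 on the deposited scale. On that scale 5 of the 10 endothelial genes were called: Ccm2l was higher (2.09), and Tek (-0.64), Eng (-0.98), Esam (-0.97) and Egfl7 (-0.54) were lower. Flt1 then had a change of 0.51 (adjusted p = 0.138), and Cdh5 turned to -0.21. Rescaling a library moves all its genes nearly alike, so the distance of Ccm2l from the median of all genes was kept by construction.

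**Figure D3:**
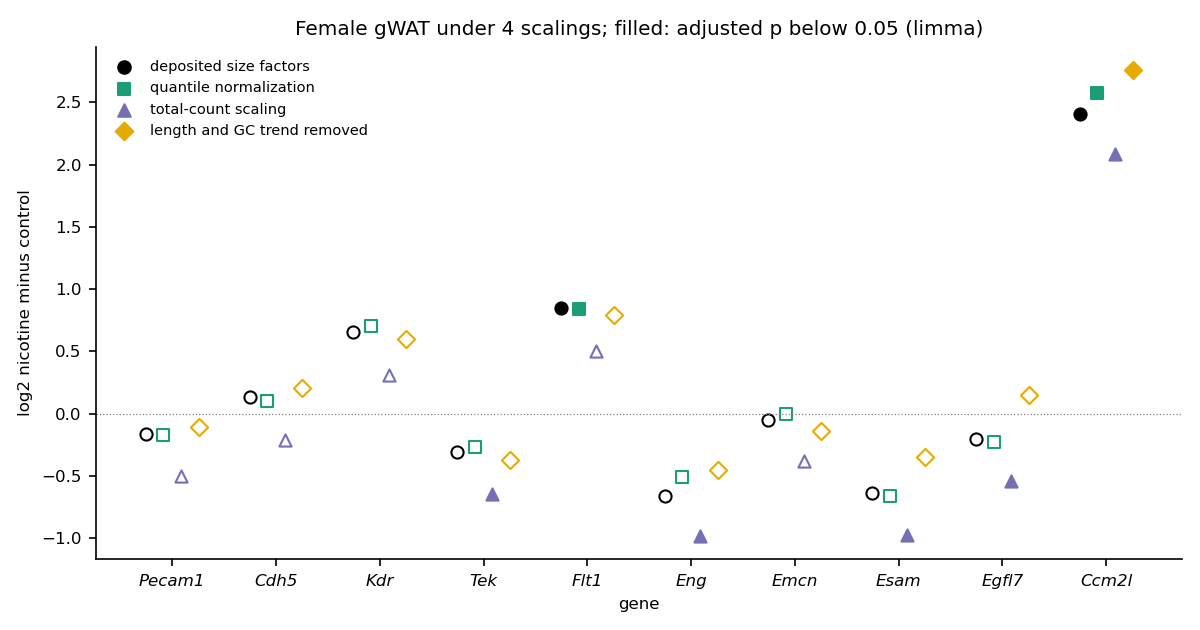
Log2 change (nicotine minus control) of the 10 genes in female gWAT with the deposited size factors, quantile normalization, total-count scaling, and with the trend on length and GC content taken out; filled symbols passed an adjusted p of 0.05 (limma). Ccm2l is filled in all 4 (2.09 to 2.76), Flt1 in 2, and Tek, Eng, Esam and Egfl7 with total-count scaling alone.

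Changes in female gWAT also ran with transcript length and base composition. The median log2 change was -0.21 among the genes with the shortest transcripts and 0.13 among those with the longest, in bins of equal size, and 0.11 at the lowest GC content against -0.23 at the highest. Flt1 (6895 nt) and Kdr (5924 nt) have the longest transcripts of the 10 genes, and Esam and Egfl7 (1865 nt each) the shortest. After that trend was removed from each library, Ccm2l had a change of 2.76, Flt1 of 0.79 (adjusted p = 0.0535) and Egfl7 of 0.15. Ccm2l, with a short transcript of 2280 nt and the highest GC content of the 10 (60.1%), moved against the trend.

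Kdr and Flt1 moved together from library to library. Their promoter windows are shown as a description, and whether they bear on that correlation was not tested. The correlation was not recomputed with the length and GC trend removed. In the 19 gWAT libraries, with each group's mean removed, their log2 values correlated with a Pearson r of 0.95 and a Spearman rho of 0.88, the highest of the 45 pairs among the 10 genes (permutation within groups, adjusted p = 0.0012 for both, over 118 pairs computed). Without the 2 libraries farthest from the median of Kdr, r was 0.93, and it was 0.94 in females and 0.97 in males alone. In the 20 liver libraries the same pair had r = 0.51 and rho = 0.29 (adjusted p = 0.21 and 0.42). All points share the size factor of their library. The windows below run from 250 bases before to 50 after the RefSeq start on GRCm38.p6, at chr5:75978406-75978705 for Kdr and chr5:147725962-147726261 for Flt1, both on the minus strand and written 5′ to 3′. Capitals mark GGAA on either strand (GGAA or TTCC), the core bound by ETS factors, a family that endothelial gene promoters commonly use.
Kdr: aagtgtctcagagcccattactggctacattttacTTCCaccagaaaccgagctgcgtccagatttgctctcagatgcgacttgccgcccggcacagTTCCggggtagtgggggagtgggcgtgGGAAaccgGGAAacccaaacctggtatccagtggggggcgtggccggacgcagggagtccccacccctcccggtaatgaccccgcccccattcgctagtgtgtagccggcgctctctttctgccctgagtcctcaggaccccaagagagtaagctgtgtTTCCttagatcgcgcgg
Flt1: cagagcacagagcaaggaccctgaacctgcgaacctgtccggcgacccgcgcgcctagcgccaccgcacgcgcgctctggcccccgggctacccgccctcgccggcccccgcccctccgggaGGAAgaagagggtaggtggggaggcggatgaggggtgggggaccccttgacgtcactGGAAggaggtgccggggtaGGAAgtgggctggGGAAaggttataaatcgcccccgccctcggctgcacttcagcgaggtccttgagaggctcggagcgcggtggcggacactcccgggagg
The Kdr window holds 5 matches to GGAA and the Flt1 window 4, where 96% of all 32851 RefSeq windows of the same length hold at least 1, 28.6% hold 5 or more and 46.3% hold 4 or more. TATAAA, the TATA box, searched on both strands, occurs 1 time in the Flt1 window and not in the Kdr window, against 13.6% of all windows. A match is a run of letters and not a measured binding site. Windows were found for 6 of the 10 genes (Egfl7 with 3, Eng, Emcn, Tek, Kdr and Flt1), and none for Pecam1, Cdh5, Esam and Ccm2l.

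**Figure D4:**
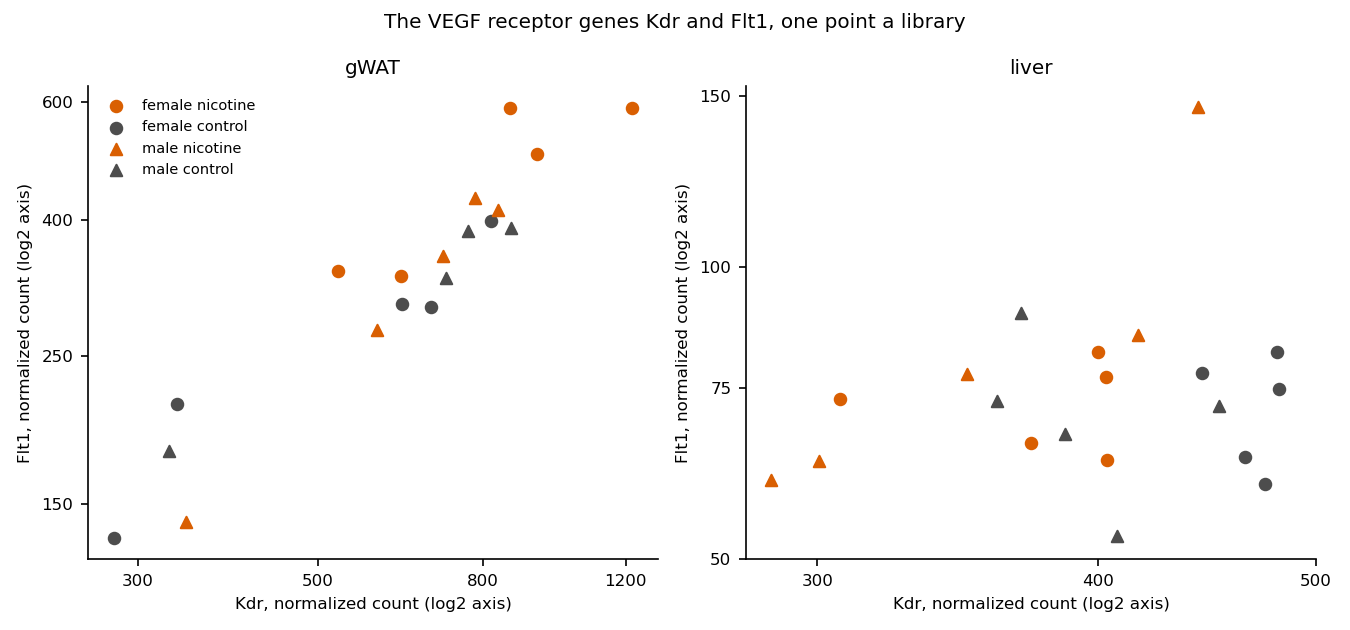
Flt1 against Kdr in normalized counts, both on log2 axes, 1 point a library, for gWAT (left) and liver (right); orange is nicotine, dark grey is control, circles are females and triangles males. The gWAT points form a rising band from control library 4 of females (280.3 for Kdr, 133.7 for Flt1) to nicotine library 4 of females (1222 and 588.9), and the liver points do not.

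The other vascular lists in female gWAT moved in both directions, as did all tested genes. Beside the list counts below, limma called 25.2% of all 10532 genes tested there, 1303 higher and 1353 lower. Among 7 ligands tested, 2 rose and none fell: Angpt1, the ligand of Tek, averaged 65.28 ± 15.79 in nicotine and 32.05 ± 5.552 in control females (log2 change 0.99, adjusted p = 0.0042, limma), and Vegfb, a ligand of Flt1, 171.6 ± 21.17 and 121 ± 26.82 (0.52, adjusted p = 0.0464; 0.18 with total-count scaling). Among 11 further receptors 3 rose and 2 fell. Ptprb, the vascular phosphatase that acts on Tek and VE-cadherin, averaged 580.8 ± 174.2 and 244.4 ± 72.42 (1.25), and the semaphorin receptor Plxnd1 33.43 ± 12.28 and 9.892 ± 5.091 (1.71). Acvrl1, the BMP9 receptor that partners with endoglin, fell (-1.21), as did Ramp2, a subunit of the adrenomedullin receptor (-0.93).

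Of 6 Notch genes tested, the ligand Jag1 (0.90) and the receptor Notch1 (0.71) rose and none fell, while the list's median was -0.53; the count was 1 higher and 3 lower with total-count scaling, and 2 higher and 1 lower with DESeq2. Of 13 transcription factors, 3 rose and 2 fell: the ETS factor Fli1 had a change of 1.19 and the flow-responsive Klf2 of 0.56, and Lmo2 of -1.13 and Sox17 of -0.87. With total-count scaling Notch1 (0.37) and Klf2 (0.22) no longer passed.

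Among 12 junction and CCM complex genes, 5 fell and none rose, where 25.2% of all genes tested were called, with a list median of -0.54. Heg1, the membrane partner of the CCM complex, averaged 231.2 ± 26.97 in nicotine and 495.3 ± 62.01 in control females, a log2 change of -1.09 (limma adjusted p = 0.000305). F11r, a junctional adhesion molecule also made by epithelium, averaged 192.4 ± 41.16 and 451.8 ± 43.7 (-1.25), and Jam2 (-0.71) and Icam2 (-0.90) were lower as well. The summed level of the 12 genes was 947 to 1031 normalized counts in nicotine and 1438 to 1699 in control libraries. Ccm2l and Heg1 thus moved in opposite directions, with 0 of the 12 listed genes called higher; the count was 0 higher and 8 lower with total-count scaling, and 1 higher and 3 lower after the length and GC trend was removed.

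Of 18 other pan-endothelial markers, 3 fell and none rose, where 25.2% of all 10532 genes tested were called. Thbd, the anticoagulant receptor thrombomodulin, averaged 144.4 ± 21.24 in nicotine and 431.8 ± 62.73 in control females (-1.57). Procr, the protein C receptor, averaged 17.42 ± 6.018 and 43.26 ± 5.101 (-1.35). Cd34, which adipose progenitors also express, averaged 177.7 ± 59.46 and 392.1 ± 70.23 (-1.18). The count was 0 higher and 9 lower with total-count scaling, and 0 higher and 6 lower with DESeq2. Markers of other cells differed between the same groups. Macrophage markers summed to 169.1 to 368.5 in nicotine and 571.7 to 1258 in control libraries, with 6 of 6 tested genes called lower. Fibroblast and progenitor markers summed to 2014 to 6522 and 4728 to 9239 (4 of 7 lower), and lymphatic endothelial markers to 30.05 to 137.6 and 139.2 to 300.5 (3 of 3 lower). Mesothelial markers summed to 101 to 506.3 in nicotine and 160.7 to 709.1 in control libraries (3 of 6 lower), platelet markers to 30.05 to 85.99 and 198.3 to 369.3 (the 1 gene tested, Pf4, lower), and erythroid markers to 526 to 2417 and 1455 to 5612 (1 of 5 lower). Adipocyte markers summed to 20322 to 39363 and 24121 to 81043, with 1 of 6 higher. Of the listed genes, 7 of 8 macrophage and 3 of 6 platelet genes had a row in the female gWAT table, as did every fibroblast, lymphatic, mesothelial, erythroid and adipocyte gene, and none of these was at 0 in all libraries. The part of these cell types in the endothelial changes was not tested.

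**Figure D5:**
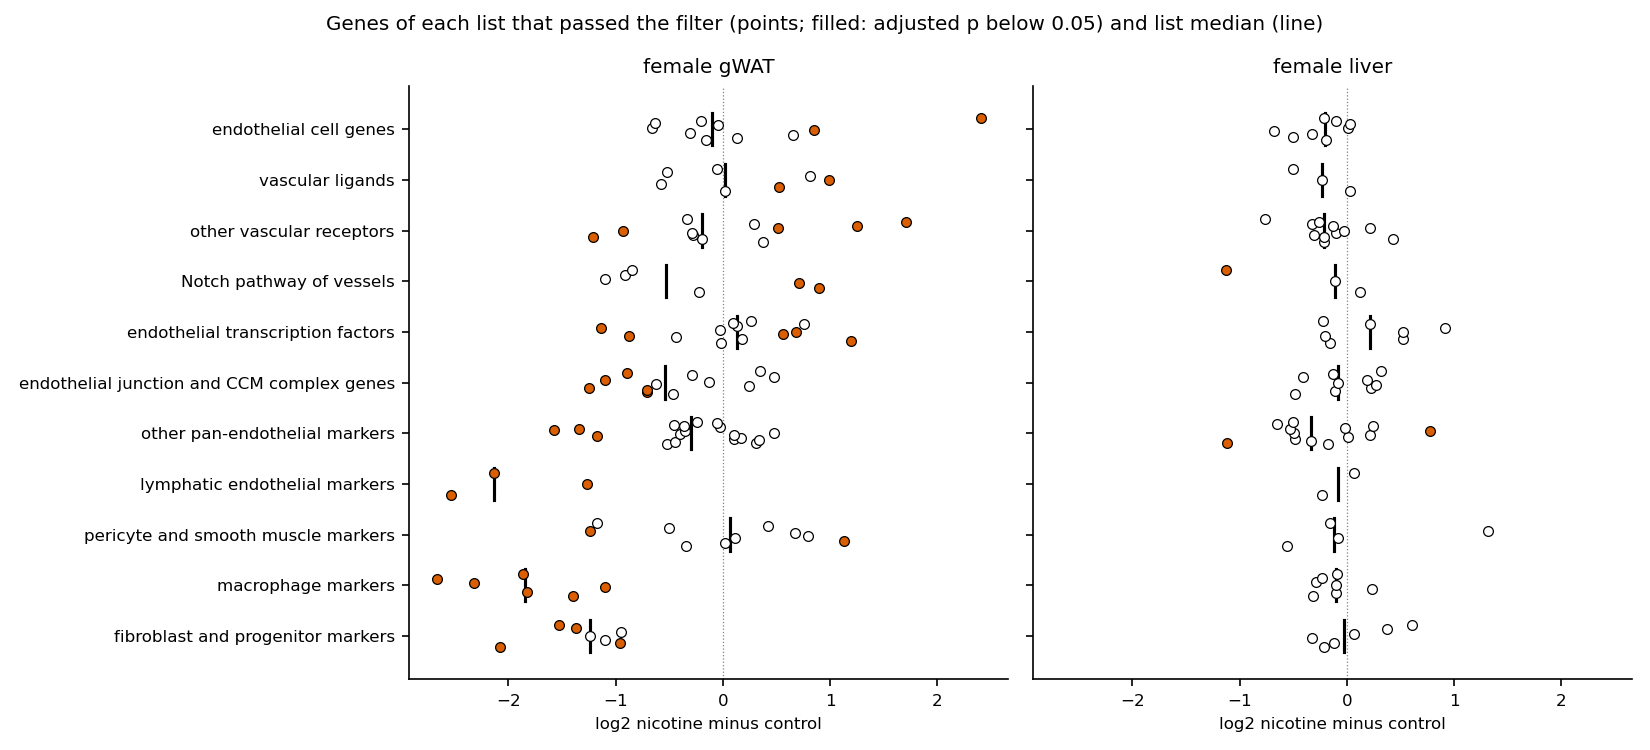
Log2 change (nicotine minus control) of each gene that passed the filter, by list, in female gWAT (left) and female liver (right); filled points passed an adjusted p of 0.05 (limma) and the vertical line is the list's median. In female gWAT the junction list (median -0.54) and the macrophage list (-1.84) lie left of 0, and the endothelial cell genes (-0.10) spread over both sides.

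In female liver 0 of the 8 genes tested passed, against 3.28% of the 9173 genes tested there with limma. At an unadjusted p below 0.05, 3 did (Kdr, Tek and Cdh5), against 17.6% of all genes, edgeR called 0 (3.27% of all) and DESeq2 called 1 (3.56% of all), which was Kdr. Kdr had 373.5, 403.2, 307.2, 403.5 and 399.8 normalized counts in nicotine livers, against 481.6, 474.5, 445, 480.3 and 465 in control livers. The groups did not overlap, which held for 2.49% of genes in the lower direction. The means were 377.4 ± 41.2 and 469.3 ± 15.07 (SD, n = 5 each), a log2 change of -0.32 (SE 0.09, 95% interval -0.50 to -0.14, limma adjusted p = 0.0520). DESeq2 on the recovered reads gave an adjusted p of 0.0325 and the authors' deposited table one of 0.0295, with 3.73% of its genes below 0.05, so Kdr lies at the edge of the threshold. With limma it was called in none of the 10 fits that left out 1 library, with an adjusted p of 0.0543 to 0.110, and it had an adjusted p of 0.115 without control library 4 and nicotine library 5 together, which stood apart.

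Tek had 11.79, 10.46, 11.82, 23.99 and 17.56 normalized counts in nicotine female livers, against 16.51, 25.08, 30.69, 22.82 and 25.48 in controls (log2 change -0.68, SE 0.25, limma adjusted p = 0.142). Cdh5 averaged 34.21 ± 7.181 and 49.08 ± 12.39 (-0.50, adjusted p = 0.157). Both sets of libraries overlapped. Egfl7 had a change of -0.21, Pecam1 of -0.19, Esam of -0.10, Eng of 0.03 and Flt1 of 0.02, with adjusted p of 0.585 or more, and the 95% interval of Flt1 ran from -0.25 to 0.28. The sum of the 10 genes was 591.9 to 702.4 in nicotine livers and 771 to 838.8 in control livers, of which Kdr made up 51.91 to 59.01% and 54.98 to 62.47%. The sum of the genes other than Kdr and Flt1 was 193.6 to 234.5 and 214.6 to 286.8, so that sum overlapped.

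The 2 genes below the filter rested on few reads in liver. Emcn had 5.897, 2.853, 1.074, 4.362 and 0 normalized counts in nicotine female livers, against 6.797, 8.68, 3.836, 7.608 and 7.279 in controls. The 0 in nicotine library 5 allows up to 3.10 normalized counts, counting error only. Ccm2l had 2.853 to 5.897 in nicotine and 0.9645 to 8.739 in control female livers. Neither was tested.

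Among the other vascular lists of female liver 1 of 3 Notch genes, 2 of 13 pan-endothelial markers and 3 of 11 sinusoidal endothelial markers passed, beside 3.28% of all genes tested. The Notch target Hes1 averaged 67.89 ± 17 in nicotine and 148 ± 24.32 in control livers (log2 change -1.13, limma adjusted p = 0.000164). The pan-endothelial glycoprotein Clec14a averaged 18.25 ± 3.547 and 41.65 ± 12.65 (-1.12, adjusted p = 0.0033), and Gpihbp1, the capillary anchor of lipoprotein lipase, rose to 79.57 ± 7.205 in nicotine livers, against 46.27 ± 5.187 in control livers (0.77, adjusted p = 0.0015). No ligand, receptor, transcription factor or junction gene passed, of 3, 11, 7 and 9 tested, and at the edge DESeq2 and total-count scaling each called 1 receptor higher. Of 11 sinusoidal endothelial markers tested 3 fell and none rose, F8 (-0.47), Fcgr2b (-0.64) and Lyve1 (-0.92), named after their values were seen, and the list's sum was 759.3 to 827.6 in nicotine and 895.3 to 1021 in control livers. Macrophage markers summed to 220.2 to 399.6 and 242.5 to 374, with 0 of 7 called.

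The change in fat was set against the change in liver among females for the 8 genes tested in both. One passed, Kdr, where 19.4% of all 8147 genes did: its log2 change was 0.66 in gWAT and -0.32 in liver, a difference of 0.98 (SE 0.33, 95% interval 0.29 to 1.66, limma adjusted p = 0.0410). Flt1 had a difference of 0.83 (SE 0.31, adjusted p = 0.0620) and Cdh5 of 0.63 (adjusted p = 0.104). Eng (-0.69) and Esam (-0.53) had differences below 0, with adjusted p of 0.193 and 0.355, and Pecam1, Tek and Egfl7 lay between 0.01 and 0.37.

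The Kdr difference was sensitive to the fit. It missed the threshold with DESeq2 (0.84, adjusted p = 0.0573), edgeR (0.85, 0.0674), which called 0 of the 8 and 20.5% and 18.6% of all genes, and total-count scaling (0.61, 0.168), and without female liver control library 4 and nicotine library 5 together, which stood apart (0.99, 0.0761). Leaving out 1 library gave differences from 0.76 to 1.15 and lost the call in 15 of 20 cases. These were each of the 10 liver libraries, gWAT control libraries 2 and 4 and gWAT nicotine libraries 2, 3 and 4.

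In males no endothelial gene passed in either tissue. In male gWAT 0 of 10 were called, where limma, edgeR and DESeq2 each called 0% of the 11210 genes tested; at an unadjusted p below 0.05, 0 of the 10 and 1.62% of all genes passed. Kdr averaged 653.2 ± 195.3 in nicotine (n = 5) and 670.1 ± 236.4 in control males (n = 4), Flt1 322.6 ± 118.7 and 320.3 ± 97.57, and Ccm2l 16.58 ± 5.45 and 16.79 ± 9.33. The log2 changes of the 10 genes lay between -0.19 (Pecam1) and 0.18 (Tek), with 95% intervals up to about 1 log2 unit on either side. The epididymis-rich libraries, nicotine 1 and control 1, held 946.8 and 915.8 normalized counts over the 10 genes, against 1567 to 2193 in the other nicotine and 1970 to 2268 in the other control libraries. Each group held 1 such library, and without both still 0 of the 10 were called.

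In male liver 0 of 8 were called, against 0.055% of all 9093 genes, and at an unadjusted p below 0.05 the counts were 0 of 8 and 14.5%; edgeR and DESeq2 called none of the 8 (0.033% and 2.05% of all genes). Kdr averaged 359.2 ± 69.23 in nicotine and 395.6 ± 36.8 in control livers (log2 change -0.16), Flt1 86.36 ± 34.82 and 70.85 ± 13.17 (0.22), and Egfl7 68.1 ± 16.1 and 56.9 ± 11.63 (0.25). Nicotine library 4, which held skeletal muscle transcripts, had the highest level of Flt1 (145.9, against 60.32 to 84.99 in the other nicotine libraries) and the highest sum of the 10 genes (928). Without it the estimate for Flt1 was 0.02. Fibroblast markers summed to 590.6 to 1672 in nicotine and 550.8 to 700.1 in control male livers, and macrophage markers to 279.6 to 419.3 and 164.1 to 275; their part was not tested. Emcn and Ccm2l had 2.094 to 14.08 and 1.471 to 8.378 normalized counts in nicotine male livers, against 1.055 to 10.08 and 3.164 to 12.72 in controls.

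The sexes were compared by the difference of the nicotine effects, male minus female. In gWAT 1 of 10 genes passed, where 8.87% of all 10042 genes did: Ccm2l, with a log2 change of 0.07 in males and 2.41 in females, a difference of -2.34 (SE 0.57, 95% interval -3.52 to -1.16, limma adjusted p = 0.0160). edgeR and DESeq2 called Ccm2l too, with 9.06% and 13% of all genes. In female gWAT Ccm2l passed the filter only through its nicotine libraries. Leaving out any 1 library kept that call, with an adjusted p of up to 0.0470. Control gWAT held 9.941 ± 5.861 RPM of Ccm2l in males and 5.543 ± 2.709 in females, and nicotine gWAT 9.752 ± 3.841 in males and 23.54 ± 7.367 in females. Flt1 had a difference of -0.88 (adjusted p = 0.236) and Kdr of -0.67 (adjusted p = 0.399).

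In liver no gene of the 8 differed between the sexes past the threshold, against 1.56% of all 8699 genes with limma; at an unadjusted p below 0.05 1 of the 8 did (Tek, 0.80, adjusted p = 0.287), as did 16.3% of all genes, and edgeR and DESeq2 called none of the 8 (1.84% and 2.9% of all). Between the tissues of males 0 of 8 passed, where 0% of 8240 genes did, with 4.95% of all genes and none of the 8 at an unadjusted p below 0.05, and DESeq2 called 0.121% of all genes.

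The genes were correlated pair by pair within each tissue, 10 genes in gWAT and 8 in liver, and the tissues were not tested against each other. With group means removed, the 45 pairs in gWAT had a median Pearson r of 0.67, and 25 pairs passed a permutation within groups after adjustment. Without male nicotine library 1 and male control library 1, which are low for the genes as a set, the median was 0.33 and 4 pairs passed. In liver the 28 pairs of 8 genes had a median r of 0.14, and 1 passed, Pecam1 and Esam (r = 0.62, rho = 0.67, adjusted p = 0.049 and 0.046; r = 0.70 without the 2 libraries farthest from the median of Pecam1).

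Counting near overlapping genes limits Eng and Egfl7. The 3′ end of Egfl7 (chr2:26580014-26593120, plus strand) overlaps that of Agpat2 on the opposite strand, and Eng (chr2:32646595-32682669, plus strand) overlaps Fpgs, in GENCODE M21 on GRCm38. The use of strand is not given in the sources used here, so reads in the overlaps cannot be told apart. Egfl7 also overlaps the protein-coding gene Gm20532 on its own strand, where the use of strand would not separate reads. In female gWAT Agpat2 averaged 338.1 ± 149.4 in nicotine and 172.5 ± 83.96 in control libraries (log2 change 0.99, limma adjusted p = 0.0343), while Egfl7 did not pass; in female liver Fpgs averaged 105.3 ± 13.62 in nicotine and 127.3 ± 21.26 in control libraries. Cdh5 has an overlapping antisense gene, Gm29682.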

How the data were processed

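The authors deposited normalized counts, a signal made by dividing read counts per gene by DESeq2 size factors, in 1 table for each tissue and sex. Per the submitters' processing notes the tools were STAR, cutadapt and DESeq2, with the build mm10 and no versions. How reads were counted, and whether by strand, was not given in the sources used here. Per the file headers, the tables also hold the authors' log2 fold change, p-value and adjusted p-value. Whole reads were recovered from each column (100% of values whole within 0.1 reads). Of the 40 labelled samples 39 have a column. The 4 control columns of male gWAT carry no sample number. The labels give every sample the same batch value, 1.

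Each table was tested with limma 3.58.1 (R 4.3.3, mean trend) on log2(normalized count + 1) over genes with a mean of 10 or more, adjusted by Benjamini-Hochberg over all of them, threshold 0.05. A fold change on that scale understates the change of low genes. Differences between tissues or sexes were interaction contrasts. Alternatives were pseudocounts of 0.5 and 5, no filter, a minimum mean of 50, normalization by quantiles, edgeR 4.0.16 (quasi-likelihood) and DESeq2 1.42.0 on recovered reads, a block for the replicate number, and libraries left out. Total-count scaling, removal of a trend on transcript length and GC content (spline with 4 degrees of freedom), leaving out male gWAT control library 1 and nicotine library 1, and leaving the libraries that stood apart out of the differences were chosen after seeing the data. Scripts were tested on simulated counts. Correlations used 100000 permutations within groups. Locations and lengths came from GENCODE M21, and promoters from RefSeq (GRCm38.p6), 250 bases before to 50 after the start.

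The 10 genes and all other lists were chosen with earlier results of these data known. All 10 are named in each comparison; of other vascular lists, up to 4 genes of smallest p past the threshold. Figures were drawn with matplotlib 3.10.9 in Python 3.11.15 with pandas 2.3.3, NumPy 2.4.6 and SciPy 1.17.1. Intervals and floors (3 reads) cover counting error only where they come from counts.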

Additional observations from a re-analysis of the deposited data

Results flagged for a closer look

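One library stood apart from the rest of its group in 4 of 80 combinations of gene and group, and chance flags about 1 in 20. Pecam1 had 65.63 normalized counts in male gWAT nicotine library 1, against 117.1 to 135.5 in the other 4. Cdh5 had 89.67 in male gWAT control library 1, against 174 to 190.3 in the other 3. Both libraries are those with the most epididymis transcripts. Flt1 had 145.9 in male liver nicotine library 4, the library with skeletal muscle transcripts, against 60.32 to 84.99. Esam had 43.57 in female gWAT nicotine library 1, against 120 to 128.

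The effect of paternal nicotine differed between groups for 1 of 10 genes by sex in gWAT, where 8.87% of all genes did, and for 1 of 8 by tissue in females, where 19.4% did. That of Ccm2l in gWAT, male minus female, differed by -2.34 on the log2 scale (limma adjusted p = 0.0160). That of Kdr among females, gWAT minus liver, differed by 0.98 (limma adjusted p = 0.0410); this call was lost with edgeR, DESeq2, total-count scaling, no filter and the replicate block, and in 15 of 20 fits that left out 1 library.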

How the results depend on the processing

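Of 766 recomputed values of single genes 667 kept their direction and side of the threshold, and of 197 counts of genes called 161 were within 1.5 times the reported one. In female gWAT the count of 2 became 1 with edgeR, with the length and GC trend removed and with the replicate block (Ccm2l each time), 1 with a mean of 50 or more (Flt1, since Ccm2l was then not tested) and 5 with total-count scaling; leaving out 1 library gave 1 to 2. In female liver the count of 0 became 1 (Kdr) with DESeq2 and with a mean of 50 or more. The difference between tissues in females had a count of 1, which became 0 with DESeq2, edgeR, the replicate block and without the libraries that stood apart, and 2 (Kdr and Flt1) with a mean of 50 or more; leaving out 1 library gave 0 to 2. With no filter the 1 gene called was Ccm2l, then tested, and Kdr had an adjusted p of 0.0541; with total-count scaling it was Eng. The difference between sexes in gWAT had a count of 1, which became 0 with a mean of 50 or more, where Ccm2l was not tested. The cause was not tested.

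The replicate number as a block lost Flt1 in female gWAT (adjusted p = 0.0810) and Kdr between tissues, and no other call. Within each table, same-numbered nicotine and control libraries correlated between -0.277 and 0.173, with group means removed. The labels state no pairing, and correlations over all tested genes cannot exclude one. In male gWAT the control columns carry no number. Whether same-numbered gWAT and liver libraries share an animal was not tested.

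Signs turned for values that passed no test: Ccm2l in male gWAT with DESeq2 (-0.015), edgeR (-0.0024), the trend removed (-0.039) and without the epididymis-rich libraries (-0.050), Tek there without those libraries (-0.061), and, there with the trend removed, Emcn (0.0097), Esam (-0.016), Flt1 (0.015) and Kdr (0.020). Flt1 in male gWAT was 0.0074 with DESeq2 and 0.024 with edgeR. Cdh5 in male liver was 0.0075 with DESeq2 and 0.083 with total-count scaling, and in female gWAT -0.21 with total-count scaling. Egfl7 in female gWAT was 0.15 with the trend removed, Emcn 0.0007 with quantile normalization, and Kdr in male liver 0.025 without nicotine libraries 1 and 5. Leaving out 1 library also turned some signs. Such ranges in male gWAT were Ccm2l -0.25 to 0.38, Cdh5 -0.14 to 0.26, Egfl7 -0.44 to 0.033, Emcn -0.45 to 0.37, Eng -0.45 to 0.057, Esam -0.18 to 0.31, Flt1 -0.28 to 0.24, Kdr -0.32 to 0.20, Pecam1 -0.61 to 0.076, Tek -0.27 to 0.39. Such ranges in male liver were Cdh5 -0.12 to 0.068, Eng -0.093 to 0.25, Pecam1 -0.11 to 0.18, Tek -0.020 to 0.25. Such ranges in female gWAT were Emcn -0.14 to 0.12. Such ranges in female liver were Eng -0.075 to 0.11, Esam -0.24 to 0.10, Flt1 -0.045 to 0.066.

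Emcn and Ccm2l were not tested in liver, where their mean normalized count was below 10.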

Other observations

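Across all 39 libraries, with group means removed, the genes outside the 10 whose log2 values were most like the mean of 8 of them (those with a mean of 10 or more in every table) were Adgrl4 (Pearson r = 0.85), an adhesion receptor of endothelium, Tspan4 (0.83), Cavin2 (0.83), a caveolar coat protein, Gnpat (0.82), Ywhab (0.80) and Sptbn1 (0.80), of 7745 genes considered, whose median r was 0.01. Of those 7745 genes, 491 had an r above 0.5. These correlations are descriptions over libraries that share their size factors. Without male gWAT control library 1 and nicotine library 1 the 6 genes named first had r between 0.49 and 0.69. The 6 highest were then Gnpat (0.69), Echdc1 (0.68), St3gal3 (0.67), Ccnd2 (0.67), Glod4 (0.65) and Bckdha (0.63).

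Kdr and Flt1 together made up 61.9 to 73.58% of the normalized counts of the 10 genes in nicotine and 42.64 to 58.94% in control female gWAT, while the sum of the other 8 was 532 to 713.6 and 506.6 to 846.8. In male gWAT that share was 50.79 to 57.45% in nicotine and 50.75 to 57.19% in control libraries. These shares do not depend on the library scaling, and they were looked at after the values of both genes were known. Both genes had higher nicotine means in female gWAT, so a higher share there follows in part from the choice of the pair. Shares of other pairs were not computed, so these shares are a description. A share does not remove the trend on transcript length seen in female gWAT. Flt1 (6895 nt) and Kdr (5924 nt) have the longest transcripts of the 10.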
